A study of Mus musculus with 6 samples.

Results

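Nodal signalling was followed through the RNA of 10 genes, Nodal, Gdf3, Tdgf1 (also called Cripto), Acvr1b, Acvr2b, Lefty1, Lefty2, Smad2, Foxh1 and Smad7. They were chosen by name as components of the pathway, and all 10 were found among the 24191 genes of the deposited table by their GENCODE M21 symbols. PolyA RNA had been sequenced from J1 mouse embryonic stem cells in 3 wild-type (WT) libraries and in 3 libraries of Mettl5 -/- cells (knockout), both grown in serum and LIF for 7 days. METTL5 is an enzyme that adds N6-methyladenosine to the RNA of the small ribosomal subunit, and the study addressed its part in pluripotency and developmental programmes. The labels do not say how the knockout was made or how many clones or cultures the 3 libraries of a genotype came from, so p-values measure the spread between these libraries, which may be technical.

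Nodal is a secreted ligand of the TGF-beta family that patterns the early embryo and induces the primitive streak. It binds activin receptors of type I (such as ALK4, encoded by Acvr1b) and type II (such as ACVR2B) together with the membrane-anchored co-receptor CRIPTO, and the receptors then phosphorylate SMAD2 and SMAD3, which enter the nucleus with SMAD4 and bind DNA with partners such as FOXH1. Nodal, Lefty1 and Lefty2 are themselves targets of the pathway in the embryo, and because the LEFTY proteins block the ligand and its co-receptor, they form a negative feedback loop. Mouse embryonic stem cells express most of these components.

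Levels below are means ± SD of the deposited TPM signal, a value per length of transcript that is called the TPM scale because the totals differed between libraries. Fold changes are knockout against WT on the log2(scaled reads + 1) scale of the other deposited column, with their standard error (SE), from a limma fit over 24183 genes, and a gene was called at a Benjamini-Hochberg adjusted p under 0.05. Mettl5 itself, which checks the labels, was between 48.6 and 50.3 in the WT libraries and between 3.32 and 3.65 in the knockout libraries. A rough estimate of depth ranged from 38560000 to 59640000 fragments. It was made from scaled reads, which are not counts, and could not be checked. No library stood apart from its genotype (Pearson correlation across genes 0.988 to 0.992 within and 0.946 to 0.949 between genotypes).

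Knockout cells had more Nodal, Lefty1, Lefty2, Smad2, Foxh1 and Smad7 RNA and less Tdgf1, Gdf3 and Acvr1b RNA, while Acvr2b was not called. Thus 6 of the 10 genes were higher and 3 lower, where 33.6% and 28.9% of all tested genes were called higher and lower. Scaled reads of the genotypes did not overlap for 9 of the 10, as for 67.8% of all tested genes, so a called difference was common in this comparison. The median log2 fold change of the 10 genes was 0.44, against 0.00 over all tested genes. RNA was measured in bulk, so fewer cells that express a gene and less RNA per cell cannot be told apart.

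**Figure D1:**
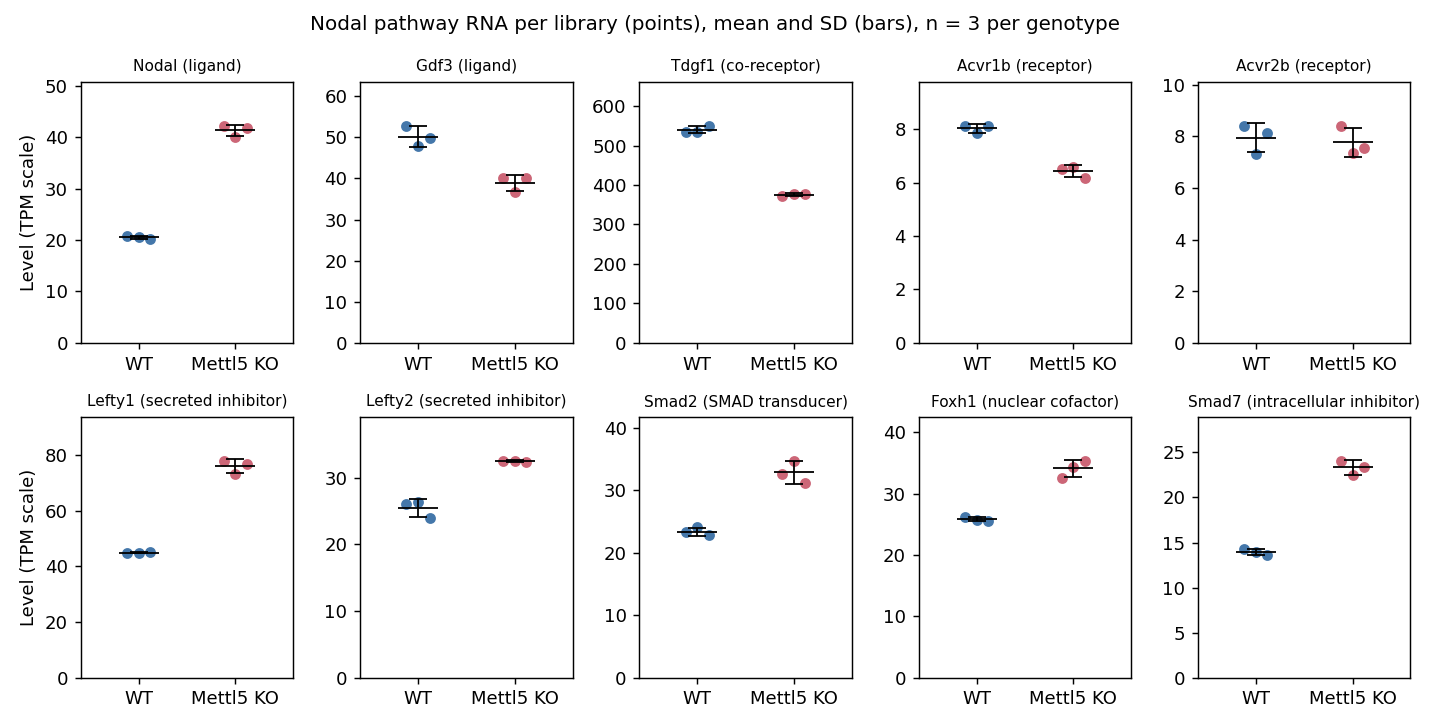
Level on the TPM scale (vertical axes, each from 0) of the 10 pathway genes in 3 WT (blue) and 3 Mettl5 knockout (red) libraries. Points are libraries, and bars are the mean and SD. Nodal sits near 20.5 in WT and 41.3 in knockout libraries, and only Acvr2b overlaps between the genotypes.

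The ligands moved in opposite directions. Nodal (ENSMUSG00000037171, mm10 chromosome 10, 61417972 to 61425338) was at 20.8, 20.5 and 20.2 in WT replicates 1, 2 and 3 and at 42.2, 40.1 and 41.7 in knockout replicates 1, 2 and 3. Every knockout library was thus well above every WT library, with a coefficient of variation of 1.37% within WT and 2.62% within the knockout. The change of 1.06 on the log2 scale (SE 0.0309, limma adjusted p 4.79e-09) is a fold of 2.09 with a 95% interval of 1.99 to 2.19. It lay at percentile 88.9 of the fold changes of all tested genes.

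Gdf3 (ENSMUSG00000030117, chromosome 6, 122605403 to 122610087) encodes a ligand related to NODAL that also uses CRIPTO and is known from undifferentiated stem cells. It was at 52.8, 47.8 and 49.8 in WT and at 40.0, 36.6 and 40.0 in knockout libraries, without overlap. It changed by -0.31 on the log2 scale (SE 0.0479, limma adjusted p 0.000365). This fall was of the size of the shift of its chromosome: the 1180 tested genes of chromosome 6 had a median of -0.29. With log2 values centred per chromosome, Gdf3 was at -0.02 (limma adjusted p 0.669) and was no longer called.

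Tdgf1 (ENSMUSG00000032494, chromosome 9, 110939603 to 110946158), the gene of the co-receptor CRIPTO, had the highest level of the 10 genes in every library. It was at 534, 535 and 550 in WT and at 372, 377 and 378 in knockout libraries. The change of -0.46 on the log2 scale (SE 0.0244, limma adjusted p 2.39e-07) leaves 0.728 times the WT amount (95% interval 0.701 to 0.756). The median of all tested genes of chromosome 9 was 0.04, and with log2 values centred per chromosome Tdgf1 was at -0.52. Tdgf1 has processed pseudogenes, and 12.5% of the 31-base words of its annotated transcripts also occurred in transcripts of other genes, so reads could be split. Tdgf1-ps1, on chromosome 16, was listed at 198 to 227 on the TPM scale in WT and 159 to 176 in knockout libraries. The summed scaled reads of Tdgf1 and Tdgf1-ps1 changed by -0.43 on the log2 scale, close to Tdgf1 alone.

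The 250 bases before the annotated start of Nodal and of Tdgf1 are shown because the ligand and its co-receptor moved in opposite directions and both are near the top of the cascade. The sequences are from RefSeq on GRCm38.p6, and only the windows of 4 of the 10 genes were searched (Acvr1b, Acvr2b, Nodal and Tdgf1). Nodal is on the plus strand, chr10:61417722-61417971, and Tdgf1 on the minus strand, chr9:110946159-110946408, both printed in the direction of transcription. Capitals mark matches to TGTNNATT, a loose form of the FOXH1 motif, on either strand.
Nodal: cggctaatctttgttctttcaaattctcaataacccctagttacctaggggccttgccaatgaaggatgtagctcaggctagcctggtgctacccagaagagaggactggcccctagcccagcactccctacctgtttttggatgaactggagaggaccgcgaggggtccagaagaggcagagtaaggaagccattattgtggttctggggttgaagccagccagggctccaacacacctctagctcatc
Tdgf1: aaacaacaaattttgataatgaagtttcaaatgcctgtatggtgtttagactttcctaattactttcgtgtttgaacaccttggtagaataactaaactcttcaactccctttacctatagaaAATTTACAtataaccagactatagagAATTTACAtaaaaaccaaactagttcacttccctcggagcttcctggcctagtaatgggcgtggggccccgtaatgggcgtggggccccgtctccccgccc
The Tdgf1 window held 2 matches, both on the strand opposite to transcription, starting 127 and 101 bases before the start site, and 10.9% of 32817 RefSeq windows, cut to the same 250 bases before the start, hold at least 1. The Nodal window held none, and sequence outside these 250 bases was not searched for either gene. None of the 4 windows held the stricter FOXH1 form TGTGGATT (0.719% of all windows), the SMAD motifs GTCTAGAC (0.168%), CAGACA (17.1%) or GGCGCC (9.59%), the TCF and LEF motif CTTTGAA (4.46%) or TATAAA (12.4%), each searched on both strands. TGTGGATT is a special case of TGTNNATT. The base composition differed, with 53.2% G and C in the Nodal window and 42.0% in the Tdgf1 window, against a median of 52.4% over all windows and 78.8% and 72.8% in those of Acvr1b and Acvr2b. These are matches of letters only, and no binding was measured.

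The receptor genes were the lowest of the set. Acvr1b (ENSMUSG00000000532, chromosome 15, 101174067 to 101213684), the type I receptor ALK4, was at 8.11, 7.85 and 8.13 in WT and at 6.52, 6.58 and 6.17 in knockout libraries. All 3 knockout libraries were below the lowest WT library. The change was -0.27 on the log2 scale (SE 0.0375, limma adjusted p 0.000154), and -0.43 with libraries rescaled to equal totals. Acvr2b (ENSMUSG00000061393, chromosome 9, 119402118 to 119434995), a type II receptor, was at 8.39, 7.32 and 8.12 in WT and at 8.41, 7.35 and 7.56 in knockout libraries. These ranges overlapped almost fully. The log2 fold change of 0.03 (SE 0.0733, limma adjusted p 0.741) has a 95% interval of 0.91 to 1.15 fold, and its sign was not stable (-0.13 with equal totals, -0.03 on the TPM column). The 2 receptor genes were at the same level within their spread in WT (8.03 ± 0.155 and 7.94 ± 0.554), and in the knockout Acvr2b (7.77 ± 0.558) was above Acvr1b (6.42 ± 0.223) in every library (SD, n = 3).

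Both LEFTY genes rose, Lefty1 more than Lefty2. Lefty1 (ENSMUSG00000038793, chromosome 1, 180935022 to 180938400) was at 44.9, 44.7 and 45.1 in WT and at 78.0, 73.0 and 76.9 in knockout libraries. The WT values were almost identical, with a coefficient of variation of 0.427%, and lay far below those of the knockout. The change of 0.82 on the log2 scale (SE 0.0328, limma adjusted p 3.56e-08) is a fold of 1.76 (95% interval 1.68 to 1.86). Lefty2 (ENSMUSG00000066652, chromosome 1, 180893108 to 180899103) was at 26.1, 26.4 and 23.9 in WT and at 32.6, 32.6 and 32.4 in knockout libraries. Its rise was smaller and also without overlap, at 0.41 on the log2 scale (SE 0.0413, limma adjusted p 1.9e-05), and it was 0.25 with equal totals (limma adjusted p 0.000602).

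Lefty1 and Lefty2 are neighbouring copies on chromosome 1, 35.9 kb apart, and their coding sequences share so many bases that reads can fall on either. Aligned over 1104 bases, the coding sequences were identical at 91.8% of positions. The longest run without a difference was 140 bases, more than the 100 nt to which the RNA was fragmented. Of the 31-base words of the annotated transcripts, 25.7% of those of Lefty1 and 18.2% of those of Lefty2 also occurred in another gene, for Lefty1 in Lefty2 alone. The sum of both genes depends less on how shared reads were split. On the TPM scale it was 71.0, 71.2 and 69.0 in WT and 111, 106 and 109 in knockout libraries. The summed scaled reads were higher by 0.65 on the log2 scale. Lefty1 made up 62.9% to 65.4% of the sum in WT and 69.1% to 70.5% in knockout libraries, without overlap. The Lefty1 to Lefty2 ratio was 1.72, 1.69 and 1.89 in WT and 2.39, 2.24 and 2.37 in knockout libraries, a change of 0.40 on the log2 scale.

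The intracellular components rose. Smad2 (ENSMUSG00000024563, chromosome 18, 76241580 to 76310963), the transducer phosphorylated by the receptors, was at 23.3, 24.1 and 22.8 in WT and at 32.7, 34.8 and 31.2 in knockout libraries. Knockout libraries were all higher, by 0.55 on the log2 scale (SE 0.0451, limma adjusted p 4.52e-06). Foxh1 (ENSMUSG00000033837, chromosome 15, 76668225 to 76669948), the forkhead partner of SMAD2 on DNA, was at 26.2, 25.7 and 25.6 in WT and at 32.6, 34.3 and 35.4 in knockout libraries. The genotypes were again apart, with a log2 fold change of 0.46 (SE 0.0405, limma adjusted p 6.94e-06). Smad7 (ENSMUSG00000025880, chromosome 18, 75367529 to 75395935) encodes the inhibitory SMAD that blocks type I receptors and is induced by TGF-beta signals. It was at 14.3, 14.0 and 13.6 in WT and at 24.1, 22.5 and 23.4 in knockout libraries. That rise, 0.81 on the log2 scale (SE 0.0461, limma adjusted p 3.7e-07), was of the size of that of Lefty1.

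Smad2 and Smad7 are both on chromosome 18, where genes were higher in general. Of its 567 tested genes 269 were called higher and 96 lower, with a median log2 fold change of 0.21. For the centring per chromosome, each gene was centred on its mean, and the chromosome's median of these gene-centred values was subtracted in each library. It left Smad2 at 0.30 (limma adjusted p 0.000317) and Smad7 at 0.56 (limma adjusted p 6.75e-06), both still called. Another centring, on the median level of the chromosome's genes in each library, moved chromosome 18 by 0.61. It left Smad2 at -0.06 (limma adjusted p 0.268) and Smad7 at 0.20, took Lefty2 to 0.11 (limma adjusted p 0.0952) and Lefty1 to 0.52, and left Nodal at 0.90. Nodal, Lefty1, Foxh1 and Smad7 were called higher and Tdgf1 and Acvr1b lower under every alternative tried. The plot of changes under 3 scalings shows that equal totals moved all 10 genes down together, as it moved the median of all genes to -0.15 and the share of higher genes among all called from 53.8% to 40.8%.

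**Figure D2:**
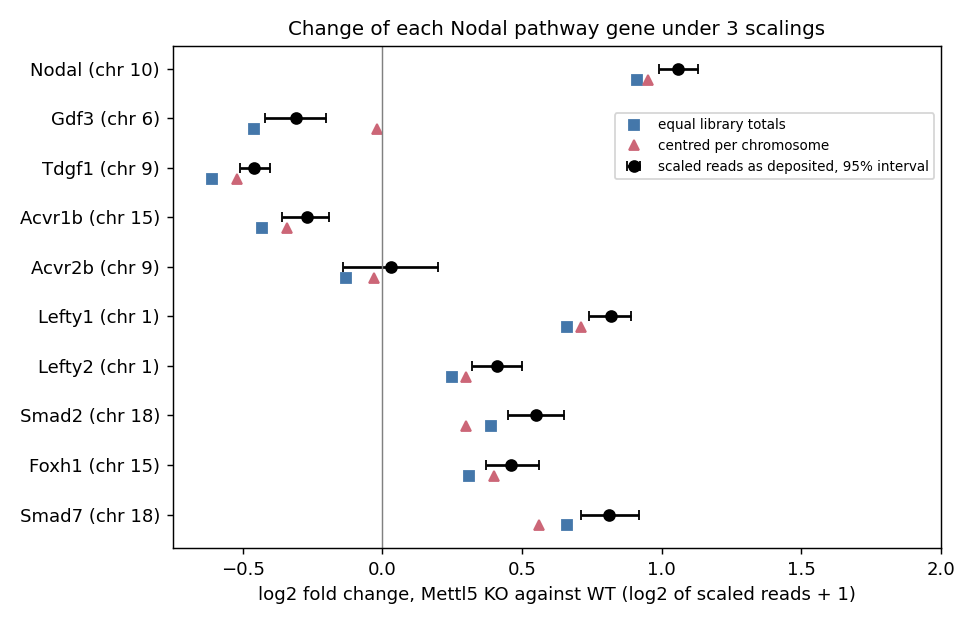
Log2 fold change, knockout against WT (horizontal axis), of each pathway gene with its chromosome. Black points with 95% intervals are from the scaled reads as deposited, and blue squares from libraries rescaled to equal totals. Red triangles are from values centred on the chromosome's medians of gene-centred values. Gdf3 moves from -0.31 to -0.02 with centring, and Nodal only from 1.06 to 0.95.

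The order of levels changed within the set. In WT it was Tdgf1 (539), Gdf3 (50.1), Lefty1 (44.9), Foxh1 (25.8), Lefty2 (25.5), Smad2 (23.4), Nodal (20.5), Smad7 (14.0), Acvr1b (8.03) and Acvr2b (7.94), as means on the TPM scale. Foxh1 overlapped Lefty2 and Lefty2 overlapped Smad2 over the WT libraries, as did the 2 receptor genes, and the other neighbours in the order were apart. In the knockout Nodal (41.3) had moved from rank 7 to rank 3, just above Gdf3 (38.8), whose highest library (40.0) was just below the lowest of Nodal (40.1). Lefty1 (75.9) stood at rank 2, and Foxh1 (34.1), Smad2 (32.9) and Lefty2 (32.5) overlapped their neighbours.

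Ratios within a library do not depend on how libraries were scaled, and 8 were computed from TPM-scale levels. The Tdgf1 to Nodal ratio was 25.7, 26.1 and 27.1 in WT and 8.83, 9.41 and 9.07 in knockout libraries. Co-receptor RNA thus went from 26.3 ± 0.769 to 9.10 ± 0.291 times ligand RNA (SD, n = 3), the largest shift among the 8 ratios (-1.53 on the log2 scale). The Nodal to Gdf3 ratio was 0.394, 0.430 and 0.407 in WT and 1.06, 1.10 and 1.04 in knockout libraries, so that Nodal RNA passed Gdf3 RNA in each of the latter. Antagonist RNA rose less than ligand RNA. The Lefty1 to Nodal ratio was 2.16, 2.18 and 2.23 in WT and 1.85, 1.82 and 1.84 in knockout libraries. The Lefty2 to Nodal ratio was 1.26, 1.29 and 1.18 in WT and 0.773, 0.812 and 0.777 in knockout libraries, so Lefty2 RNA was above Nodal RNA in WT and below it in the knockout. The Smad7 to Smad2 ratio was 0.597 ± 0.0182 in WT and 0.711 ± 0.0553 in the knockout, and the Acvr1b to Acvr2b ratio was 1.01 ± 0.0536 and 0.829 ± 0.0613 (SD, n = 3), both without overlap. Of the 8 ratios 7 did not overlap between genotypes, each with a two-sided exact permutation p of 0.1, the smallest that 3 against 3 libraries allow, so none could pass 0.05 (0.114 adjusted over the 8). The Foxh1 to Smad2 ratio overlapped (1.11 ± 0.0334 and 1.04 ± 0.0837, SD, n = 3; exact permutation p 0.4).

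**Figure D3:**
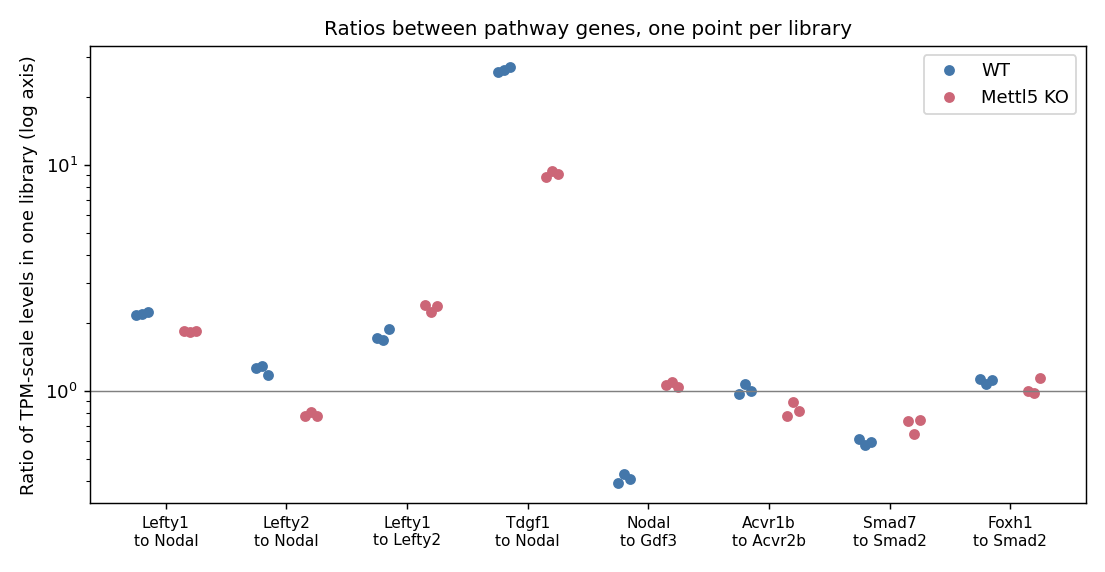
Ratio of TPM-scale levels of 2 pathway genes within each library (log axis), with 3 WT libraries in blue and 3 Mettl5 knockout libraries in red. The Tdgf1 to Nodal ratio goes from 25.7 to 27.1 in WT to 8.83 to 9.41 in the knockout, and the Foxh1 to Smad2 ratio is the only one that overlaps.

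Other genes of Nodal and activin signalling were more often called higher than lower. Of 38 listed, Cer1 was not analysed here, and of the 37 tested 22 were called higher and 4 lower, with 11 not called and a median log2 fold change of 0.30 (33.6% and 28.9% of all tested genes were higher and lower). With equal totals 19 were higher and 6 lower, and with chromosomes centred on median levels 16 and 8. The plot of these genes by role shows the largest changes among ligands, a ligand trap and targets.

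Among ligands, Inhba, the activin A subunit, went from a level of 0.0407 ± 0.00773 up to 1.84 ± 0.00861 (log2 fold change 5.41, SE 0.156), and Inhbb, the activin B subunit, fell from 8.40 ± 0.322 to 2.51 ± 0.0552 (-1.69, SE 0.0433; SD, n = 3, limma adjusted p 4.42e-09 and 2e-09). Inhba had only 8.89 scaled reads on average in WT, so the size of its rise depended on the pseudocount: it was 4.50 with a pseudocount of 10 and 3.78 on the TPM column with 0.1. Gdf1, a partner of NODAL, was at 3.69 ± 0.467 and 3.57 ± 0.151 and was not called. Furin, a protease that cleaves the NODAL precursor, rose from 4.27 ± 0.263 to 15.1 ± 0.281 (1.87, SE 0.0475), while Pcsk6 (PACE4), which acts on it too, was at 7.45 ± 0.856 and 7.76 ± 0.155 and was not called. The type II receptor gene Acvr2a rose from 2.86 ± 0.137 to 4.56 ± 0.455 (0.72, SE 0.073). Acvr1c (ALK7), the other NODAL type I receptor gene, averaged 0.0204 in WT and 0.00889 in the knockout and was not called. Cfc1, the CRIPTO relative, was called higher but stayed under 1 on the TPM scale (0.617 ± 0.163 in the knockout; SD, n = 3).

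Among secreted and membrane inhibitors 2 of 5 rose and none fell, a share of higher genes near the 33.6% of all tested genes. Fst, the activin-binding protein follistatin, rose from 0.820 ± 0.161 to 8.72 ± 0.201 (log2 fold change 3.46, SE 0.127), and the pseudoreceptor gene Bambi from 2.87 ± 0.128 to 4.30 ± 0.136 (0.63, SE 0.0467; SD, n = 3). Both other SMADs of the pathway rose, Smad3 from 3.37 ± 0.523 to 8.52 ± 0.284 (1.43, SE 0.135) and Smad4 from 23.2 ± 1.29 to 29.6 ± 1.72 (0.43, SE 0.0607). Smad4 and Bambi are on chromosome 18, as is the inhibitor gene Ldlrad4. Centred on the chromosome's medians of gene-centred values, Smad4 was at 0.18 and Bambi at 0.38, both still called. Centred on median levels, Smad4 was at -0.19 (limma adjusted p 0.0413) and Bambi at 0.02 (limma adjusted p 0.827). Of 10 intracellular inhibitors 7 were called higher and 1 lower, where 33.6% and 28.9% of all tested genes were. The lower one, Smurf2, turned direction with centring per chromosome, as given below. Ldlrad4 rose by 2.08 on the log2 scale (1.47 when centred on median levels) and Pmepa1, which binds receptor-regulated SMADs and is itself induced by TGF-beta signals, by 1.39, from 6.03 ± 0.215 to 15.0 ± 0.668 on the TPM scale (SD, n = 3). Skil, the SMAD corepressor SnoN, rose by 0.46. The rest of those called higher rose less: Tgif1 by 0.28, Nedd4l by 0.22, Tgif2 by 0.21 and Smurf1 by 0.17. Scaled reads of Nedd4l overlapped between the genotypes. Among cofactors, Wwtr1 (TAZ) rose by 1.18, the ubiquitin ligase gene Trim33 by 0.30 and Drap1, a corepressor that binds FOXH1, by 0.24. The calls of Trim33 (0.14) and Drap1 (0.02) were lost with that same centring on median levels.

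Of 7 known targets 3 rose and 1 fell, not far from the shares of all tested genes (33.6% and 28.9%) for so few genes. Among those that rose were the T-box gene Eomes, from 0.987 ± 0.0912 to 4.14 ± 0.255 (log2 fold change 2.11, SE 0.0851, limma adjusted p 3.68e-08), and the homeobox gene Mixl1 from 0.250 ± 0.031 to 1.61 ± 0.0672 (2.70; SD, n = 3). Gsc, Lhx1 and Foxa2, which mark anterior streak and node, were all under 1 on the TPM scale in both genotypes and were not called. The 4 lower genes of the list were Inhbb, Sox17, Smurf2 and Zfyve9, and the last 3 are named because they complete the count, after their values were seen. Sox17, an endoderm factor, went from 1.90 ± 0.101 to 0.213 ± 0.0314 (-3.04), and Smurf2 and the SMAD anchor gene Zfyve9 had log2 fold changes of -0.28 and -0.08. The call of Zfyve9 was marginal (limma adjusted p 0.0469) and was lost without any 1 of the 6 libraries (limma adjusted p 0.0685 to 0.166). Smurf2, a ubiquitin ligase gene, is on chromosome 11, where the median of all tested genes was -0.41. Its direction turned with either centring per chromosome, to 0.12 on medians of gene-centred values (limma adjusted p 0.00853) and 0.09 on median levels (limma adjusted p 0.0742).

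**Figure D4:**
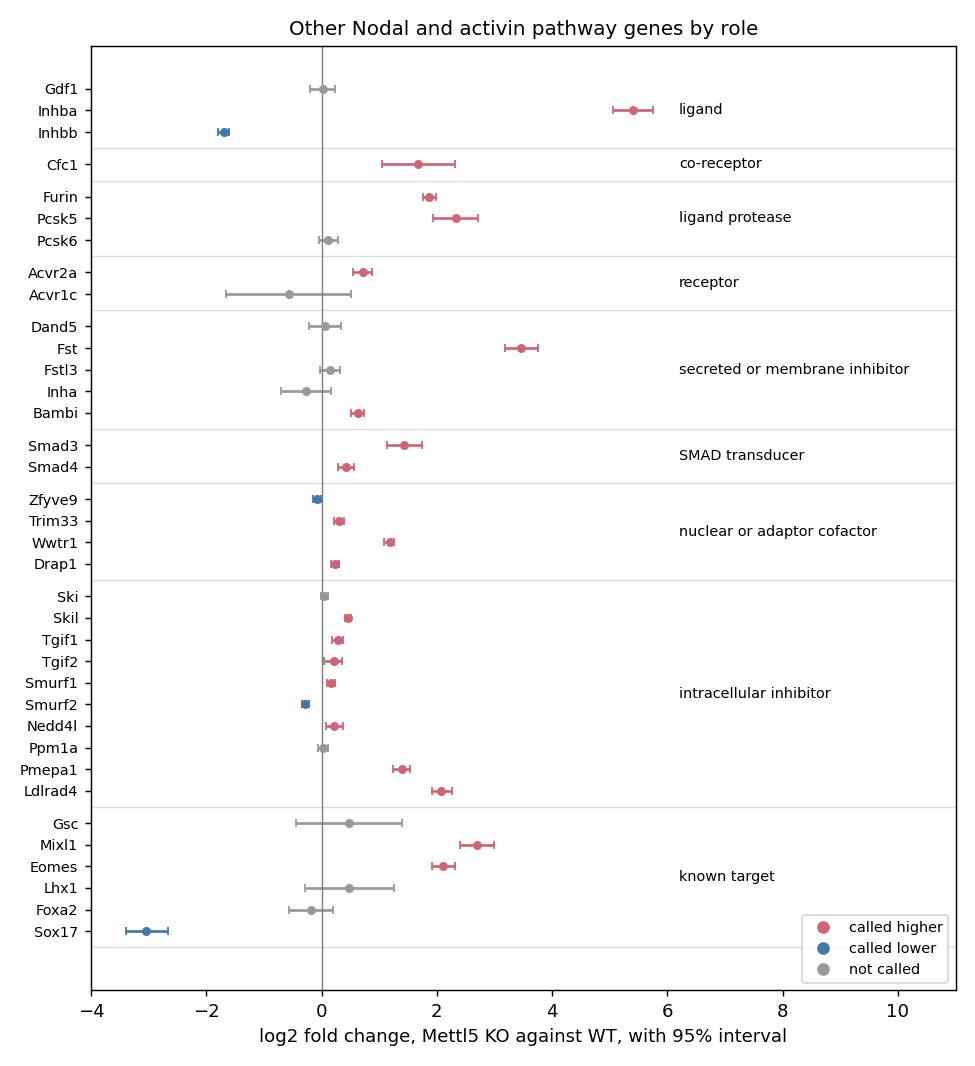
Log2 fold change, knockout against WT, with 95% interval (horizontal axis), of 36 of the 37 other Nodal and activin pathway genes tested, grouped by role. Red marks genes called higher (21), blue called lower (4) and grey not called (11). Inhba lies at 5.41, Fst at 3.46 and Sox17 at -3.04.

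Genes next to the pathway genes did not all follow them, and their counts are to be read against the 33.6% of all tested genes called higher and the 28.9% called lower. Within 250 kb of Nodal 14 other genes were tested, of which 3 were higher and 6 lower with a median log2 fold change of -0.43, many of them at low levels. These counts are not far from those shares. Around Lefty1, 10 of 16 neighbours were higher and 1 lower (median 0.36), Lefty2 among them. The LEFTY genes thus rose in a stretch where most genes rose. Around Gdf3, 8 of 15 were lower and 2 higher (median -0.65), and around Tdgf1, 10 of 17 were lower and 3 higher (median -0.70), so both fell by less than the median of their neighbours. Many neighbours of Tdgf1 were at low levels too. Those with the highest WT levels were Ccdc12 (37.2) and Lrrfip2 (24.2), which were higher (log2 fold changes 0.57 and 0.20), and Lrrc2 (19.8), which was lower (-1.05).

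**Figure D5:**
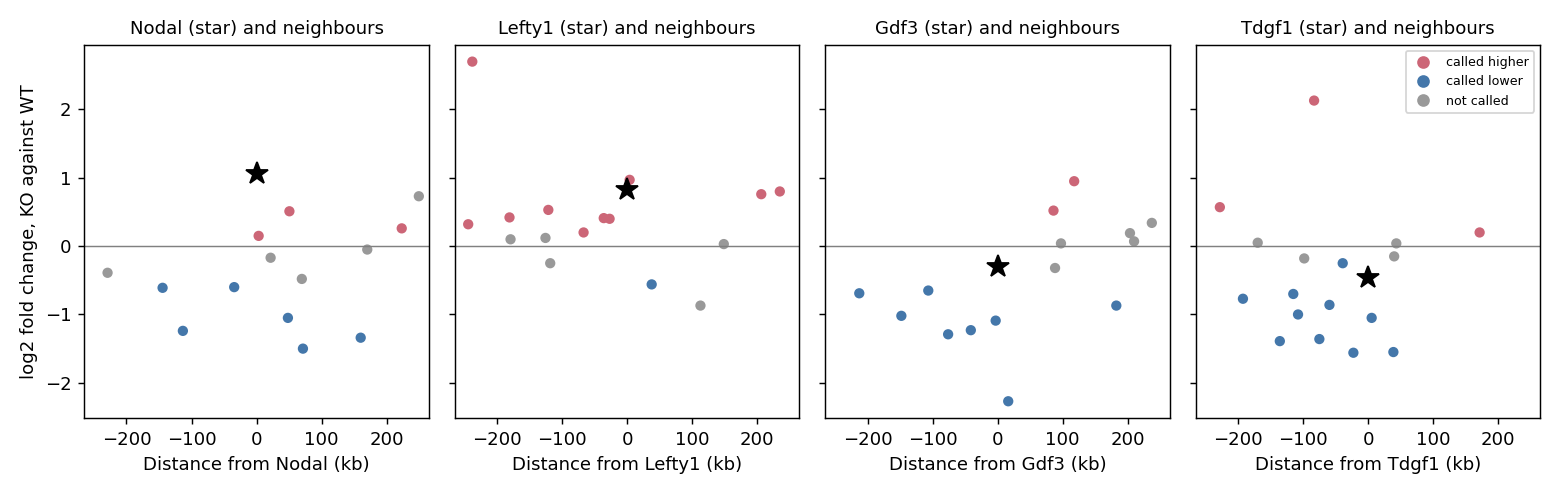
Log2 fold change, knockout against WT (vertical axis), of tested genes within 250 kb of Nodal, Lefty1, Gdf3 and Tdgf1 (stars), by distance from the gene. Red, blue and grey points are called higher, called lower and not called. Nodal lies above all 14 of its neighbours, while Lefty1 lies in a stretch with 10 of 16 higher.

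Markers of cell types that use or answer the pathway also differed between the genotypes, and their part in these results was not tested. Their counts are to be read against the 33.6% of all tested genes called higher and the 28.9% called lower. Of 8 embryonic stem cell markers 6 were lower and 1 higher, with a summed level of 4900 to 5290 on the TPM scale in WT and 4560 to 5010 in knockout libraries. Dppa5a (2330 ± 167 in WT and 2730 ± 185 in the knockout), the one that rose, and Pou5f1 (1500 ± 54.2 and 1330 ± 41.7; SD, n = 3) made up most of this sum. The median log2 fold change of the 8 was -0.55, with Zfp42 (REX1) at -1.24, Esrrb at -0.88, Fgf4 at -0.76 and Sox2 at -0.58, and Nanog was not called (0.04). Of 8 primitive streak and mesendoderm markers 4 were higher and none lower. Mixl1, Eomes, Gsc, Foxa2 and Lhx1 of this list were already counted among the known targets. The sums were 3.05 to 3.91 in WT and 66.8 to 73.5 in the knockout, where most of it was T, the streak factor brachyury, at 63.4. Of 14 fibroblast or mesenchyme markers 12 were higher and 2 lower, with sums of 17.2 to 19.9 and 41.7 to 43.0. The lower ones were Thy1 and Pdgfra. Thy1 made up most of the WT sum and fell from 13.1 ± 1.35 to 5.91 ± 0.831, and Pdgfra fell from 1.56 ± 0.136 to 0.733 ± 0.0736 (SD, n = 3). Of 10 primitive or visceral endoderm markers Afp and Ttr were not analysed here and the other 8 were lower, with sums of 38.0 to 39.6 and 13.1 to 13.9. Among these, Sox17 was already counted as a known target and Pdgfra as a fibroblast marker. No measured marker of these lists was listed at 0 throughout a genotype, but many averaged under 1 on the TPM scale. These were 11 of the 14 fibroblast and 7 of the 8 streak markers in WT (6 and 5 in the knockout). Of the 8 endoderm markers, 1 in WT and 6 in the knockout were under 1.

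Nodal and Lefty1 were compared with 9238 other genes with a mean of at least 5 on the TPM scale. Unnamed genes, pseudogenes and genes with Gm-number or Rik symbols were left out. The measure was the Euclidean distance of their log2 values over the 6 libraries, centred on each gene's mean. Nearest to Nodal were Agrn (distance 0.0113) and Cgn (0.0431), with log2 fold changes of 1.06 and 1.07. Nearest to Lefty1 were Glipr2 (0.0505), Tor1aip1 (0.0535) and Tmem128 (0.0569), at 0.82, 0.79 and 0.86. With 2 genotypes such likeness mostly says that the step between genotypes was of the same size. Agrn, chosen as the nearest of these genes, was at 33.0, 32.6 and 32.2 in WT and 66.6, 64.0 and 66.2 in knockout libraries.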

How the data were processed

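PolyA RNA of 6 libraries was analysed from a gene table the authors made with kallisto and sleuth on mm10, per the submitters' processing notes. Versions, the transcript annotation and the strand setting are not stated there. Per the file headers, it holds 2 signal columns, scaled reads per base and TPM. The deposited signal values are not counts: scaled reads were not whole and summed to 46076612 to 51829716 per library. Depth was roughly estimated as the summed scaled reads divided by each library's best step. Only 28.9% to 31.4% of the values between 0.5 and 50 were whole multiples of that step within 0.02. Gene names and coordinates came from GENCODE M21 (GRCm38, 23846 identifiers matched).

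Values of log2(scaled reads + 1) were fitted with limma 3.58.1 in R 4.3.3, using an intensity trend, for 24183 genes whose mean reached 1, and p-values were adjusted over all of these. The procedure was also run on simulated data with far fewer changed genes than were called here. That run does not measure the error of these calls. Python 3.11.15, pandas 2.3.3, numpy 2.4.6, scipy 1.17.1 and matplotlib 3.10.9 were used for the rest.

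The members, lists and tests were chosen with earlier results of these data known. Genes named beyond the 10 are up to 3 per role of the wider list, by smallest p among called genes of at least 1 on the TPM scale, and, for Nodal and Lefty1, the 3 genes nearest in pattern. Some results under these rules are not reported here. Other genes are named to complete a count or a role, or as neighbours. The labels do not say whether shared replicate numbers pair libraries. Libraries of the same number did not deviate together over all genes (correlations of 0.01 to 0.03), and the main fit used no block. Word sharing used 31 bases on the same strand of GENCODE transcripts.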

Additional observations from a re-analysis of the deposited data

How the results depend on the processing

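Of 170 values of the 10 genes under 17 alternatives, 161 kept their direction and their side of the threshold. Alternatives were equal totals, TMM scaling, the TPM column, pseudocounts of 0.5 and 10, filters of none and 20, voom weights, a replicate block, 2 centrings per chromosome and leaving out each library. Acvr2b, never called, changed sign with equal totals (-0.13), on the TPM column (-0.03), with chromosome medians of gene-centred values (-0.03) and without single libraries (-0.03 to 0.07). Centring on chromosome medians of levels gave -0.04 for Gdf3, 0.11 for Lefty2, -0.06 for Smad2 and -0.19 for Smad4, and 8 lower genes of the wider list. Its shift of chromosome 18 (0.61) is larger than the median gene change there (0.21), so centring on gene-centred values was added after seeing the data. It gave -0.02 for Gdf3 and 2 lower members. The cause of these differences was not tested. Smurf2 turned to 0.09 and 0.12 with these 2 centrings. Zfyve9 lost its call whenever a library was left out (3 lower genes in each case), with voom weights and with the block. The replicate block, from numbers whose libraries did not deviate together (correlations of 0.01 to 0.03), gave 8183 higher and 6927 lower genes and 1.06 for Nodal, and changed no call of the 10. All 10 genes had over 400 scaled reads in every library, but scaled reads are not counts. A limit set by depth was not tested.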
